A study of Mus musculus with 10 samples.

Results

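The sialyltransferases described here are 10 of the enzymes that attach sialic acid to glycans, measured in 1 epithelial and 4 mesenchymal mouse mammary tumour cell lines. They were taken as the probe sets whose only gene symbol was a listed member (St8sia6, St8sia4, St6gal1, St3gal1, St3gal2, St3gal3, St3gal4, St3gal5, St3gal6 and St6galnac4), which gave 24 of the 45101 probe sets and 10 of the 18193 genes with a single symbol. Line E came from a mammary adenocarcinoma of a female FVB/N-TgN(MMTVneu)202Mul mouse, a transgenic strain in which the mammary-active MMTV promoter drives the neu oncogene. Lines M1, M2, M3 and M4 are labelled mesenchymal and came from tumours that relapsed in female FVB/N mice after E cells had been injected, so that all 5 lines trace back to 1 tumour. No line was given a treatment, per the labels, and each was put on 2 arrays. The members were proposed from the same line means that are compared below, so their values are given as a description, with no test.

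Sialyltransferases are Golgi enzymes that transfer sialic acid from its activated form, CMP-sialic acid, to the ends of the glycans of glycoproteins and glycolipids. They are grouped by the bond they make: the ST3Gal enzymes link sialic acid to position 3 of galactose, the ST6Gal and ST6GalNAc enzymes to position 6 of galactose or N-acetylgalactosamine, and the ST8Sia enzymes to position 8 of a sialic acid that is already in place. Altered sialylation is a known trait of carcinoma cells, where it affects adhesion and recognition by lectins such as the Siglecs and selectins.

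The promoters of the 4 members whose 8 M arrays all lay below both E arrays are shown first, because these members were lower together. RefSeq (GRCm38.p6) gave windows from 250 bases before to 50 after the start for 8 of the 10 members, 11 windows in all; St3gal1 and St3gal2 were not among them. Capitals mark each GC box, searched as GGGCGG or its reverse complement CCGCCC. The St8sia6 window lies at chr2:13793471-13793770 on the minus strand, that of St6galnac4 at chr2:32586828-32587127 on the plus strand, that of St3gal5 at chr6:72097358-72097657 on the plus strand, and the most upstream of the 3 St6gal1 windows at chr16:23224490-23224789 on the plus strand.
St8sia6: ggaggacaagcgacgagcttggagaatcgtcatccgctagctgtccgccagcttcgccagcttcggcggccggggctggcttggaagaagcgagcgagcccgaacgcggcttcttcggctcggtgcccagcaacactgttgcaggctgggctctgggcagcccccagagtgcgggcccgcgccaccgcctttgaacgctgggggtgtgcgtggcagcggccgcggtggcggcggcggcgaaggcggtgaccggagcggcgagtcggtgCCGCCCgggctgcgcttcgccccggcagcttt
St6galnac4: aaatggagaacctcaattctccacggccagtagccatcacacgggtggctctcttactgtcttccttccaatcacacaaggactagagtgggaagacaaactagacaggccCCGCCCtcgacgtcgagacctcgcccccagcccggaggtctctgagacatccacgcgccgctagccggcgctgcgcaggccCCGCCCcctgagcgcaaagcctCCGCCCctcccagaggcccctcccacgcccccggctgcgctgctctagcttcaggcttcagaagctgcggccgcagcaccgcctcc
St3gal5: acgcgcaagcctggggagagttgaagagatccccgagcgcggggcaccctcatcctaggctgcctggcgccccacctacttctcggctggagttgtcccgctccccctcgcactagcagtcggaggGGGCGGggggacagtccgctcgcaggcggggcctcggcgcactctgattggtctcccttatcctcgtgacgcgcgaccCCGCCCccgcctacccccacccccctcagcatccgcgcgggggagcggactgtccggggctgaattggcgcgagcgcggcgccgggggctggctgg
St6gal1: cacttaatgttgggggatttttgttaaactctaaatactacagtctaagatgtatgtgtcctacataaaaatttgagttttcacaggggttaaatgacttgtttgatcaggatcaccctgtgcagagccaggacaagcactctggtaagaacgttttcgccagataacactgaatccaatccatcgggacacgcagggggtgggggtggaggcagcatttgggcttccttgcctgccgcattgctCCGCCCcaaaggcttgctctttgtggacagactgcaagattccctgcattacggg
The St8sia6 window held 39 CpG dinucleotides, a number that 4.4% of the 32851 promoter windows of this length reached. The St3gal5 window held 33 and the St6galnac4 window 23, while the 3 St6gal1 windows held 7, 10 and 6, against a median of 7 over all windows. A GC box was found in 8 of the 11 member windows and in 35.7% of all windows. It was not particular to the members shown: the St8sia4 window held 1, that of St3gal3 2 and that of St3gal4 3. The 2 St3gal6 windows held 5 and 0, and the 2 St6gal1 windows not shown held 0 each. The E-box CACCTG or CAGGTG, the sequence recognised by the SNAI and ZEB repressors, was in none of the 11 member windows and in 20.2% of all windows, and TATAAA or TTTATA was in none of the 11 and in 13.6% of all. These are matches of letters in short windows only.

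Levels are deposited probe set signals on a linear scale; differences are between line means of log2(signal + 32), where 32 is a pseudocount. Signals of different probe sets are not on 1 scale, so lines are compared within a gene, never genes within a line. The arrays were not equally bright. The trimmed mean signal was highest on E replicate 1 (299) and lowest on M4 replicate 1 (181), and the median gene was lower by 0.21 in the mean of the M lines than in E on the log2 scale; after quantile normalization, which gives all arrays the same distribution, the median difference was 0.04. Small differences therefore depend on scaling. The labels matched the defining markers in part: Cdh1, the epithelial cadherin, had a mean signal of 3501 in E against 5.45 to 71.4 among M lines, Epcam 10360.5 in E against 2.25 to 3.55, Cdh2, a mesenchymal cadherin, 7.65 in E against 355.5 to 1546, and Zeb1, a repressor of epithelial genes, 11.05 in E against 567 to 1369, while Vim, a mesenchymal filament gene, was at 9644 in E and Krt8, an epithelial keratin gene, at 4538 to 7947 in M2, M3 and M4. Krt8 was at 7959 in E and 57.05 in M1. Krt18, another epithelial keratin gene, was at 12611 in E, 548.5 in M1 and 5 to 14.15 in M2, M3 and M4. Fn1, another mesenchymal marker, was at 881 in E against 3352 to 6984 among M lines. Some sialyltransferases are abundant in blood cells. Of 9 leukocyte markers measured, the summed signal was 272 to 289 on the E arrays and 330 to 485 on the M arrays, 3 of the 9 (Lyz2, Csf1r and Cd68) exceeded 100 on any array, and the pan-leukocyte gene Ptprc stayed at 5.1 to 15.1 in line means. No endothelial or adipocyte marker exceeded 100 on any array.

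Of the enzymes that add sialic acid to sialic acid, St8sia6 differed most between the lines and St8sia4 was near the background in all of them. St8sia6 encodes an enzyme that extends sialylated O-glycans by another sialic acid. Its representative probe set, the one with the highest mean, read 9097.3 and 8696.4 on the E arrays, 10.5 and 16.0 on the M1 arrays, 10.4 and 4.7 on the M2 arrays, 4.1 and 13.1 on the M3 arrays, and 11.3 and 9.0 on the M4 arrays. Both E arrays were far above all 8 M arrays, and the 4 M lines could not be told apart, since the arrays of neighbours in their order overlapped. The log2 difference between the mean of the M lines and E was -7.74, with a pooled SD between the arrays of a line of 0.14, and it lay between -7.63 (M1) and -7.82 (M2) in the single lines. Its other probe sets had differences of -7.27 and -6.28. With M signals this low the size of the difference is set by the pseudocount: it was -8.99 with a pseudocount of 8 and -6.03 with one 4 times as large as the 32 used here. When the filter was recomputed without E replicate 1 or 2, another probe set stood for the gene and the difference was -6.25 or -6.32. In cultures such as these, fewer cells of a type and less RNA per cell cannot be told apart.

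St8sia4 encodes 1 of the enzymes that build polysialic acid, the long sialic acid chain best known on the neural adhesion molecule. Its representative probe set had signals of 9.7 to 19.5 on the E arrays and 2.5 to 28.9 on the M arrays, with overlapping groups and a log2 difference of -0.17 (pooled SD 0.25). The other probe set was dim on every array, with a difference of -0.09. The 40th percentile of signal, used as a filter on low values, was passed on at least 2 arrays by 1 of the 2 probe sets. The St8sia4 signals thus lay in the low range of the arrays in E and in the M lines alike.

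Both position 6 enzymes had lower signals in the M lines. St6gal1, which caps the N-glycans of many surface receptors, read 2219.7 and 1572.5 on the E arrays, 730.2 and 689.5 in M1, 1222.2 and 774.3 in M2, 576.9 and 484.1 in M3, and 445.5 and 345.4 in M4. No M array reached the lower E array, and the line means followed the order E, M2, M1, M3, M4 with no overlap between the arrays of neighbours. The log2 difference was -1.55 for the mean of the M lines (pooled SD 0.29), from -0.92 in M2 to -2.16 in M4, and the second probe set gave the same order of lines with a mean difference of -1.12. After quantile normalization the St6gal1 difference was -1.21, and -0.73 in M2.

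St6galnac4 adds a position 6 sialic acid to short O-glycans that already carry one at position 3. Its signals were 1550.4 and 1364.6 on the E arrays, 503.1 and 532.2 in M1, 573.4 and 436.1 in M2, 426.5 and 410.3 in M3, and 495.3 and 519.2 in M4. All M arrays lay below both E arrays. Unlike St6gal1, the 4 M lines were close together, with a range of 0.29 between the highest and lowest line mean on the log2 scale. The difference from E was -1.53 (pooled SD 0.14), and -1.71 for the second probe set.

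**Figure D1:**
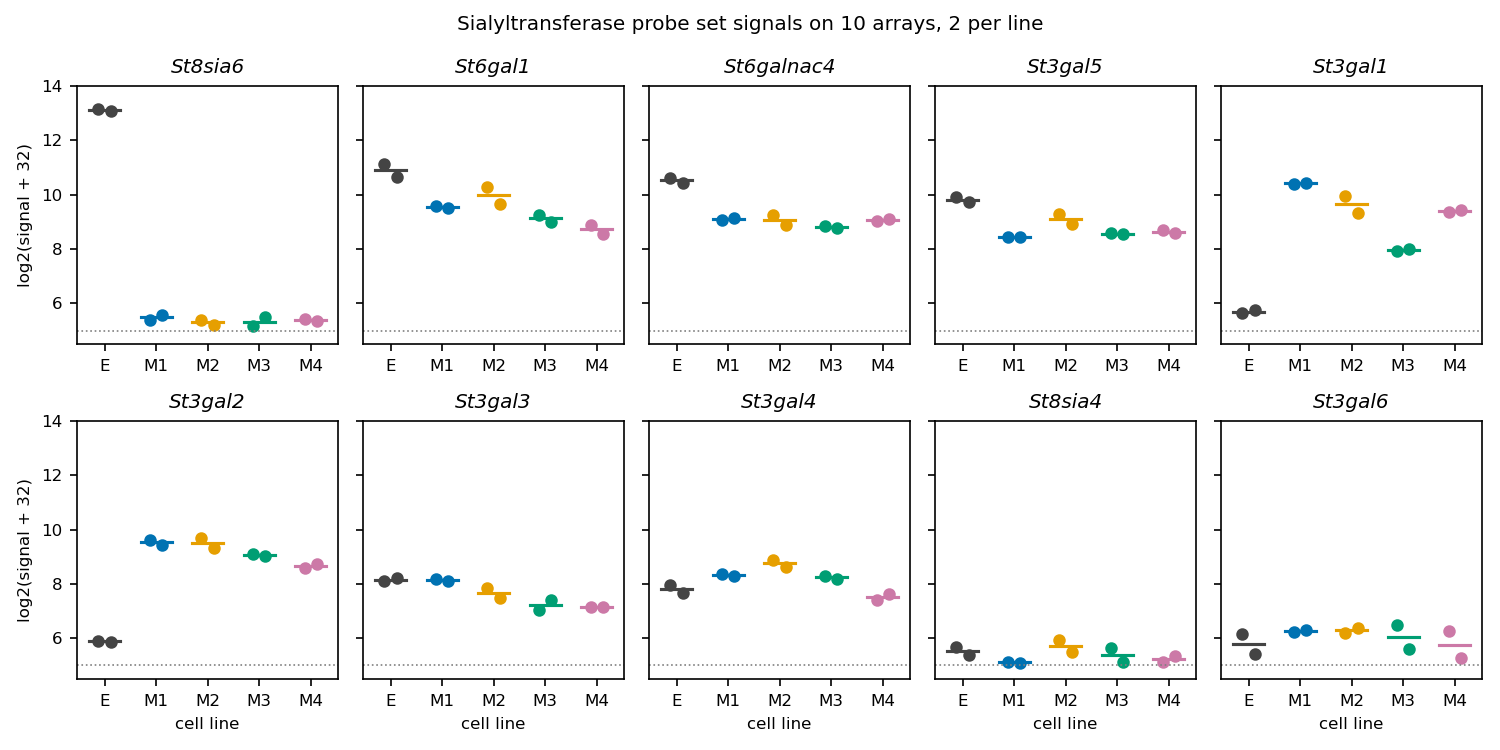
Log2(signal + 32) of the representative probe set of each of the 10 sialyltransferase genes (y axis) in the 5 cell lines (x axis); each point is 1 array, each horizontal bar the mean of the 2 arrays of a line, and the dotted line at 5 is where a signal of 0 would lie. St8sia6 is high in E alone, St3gal1 and St3gal2 are low in E and higher in all 4 M lines, and St8sia4 and St3gal6 stay near the dotted line in every line.

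The enzymes that cap core 1 O-glycans at position 3 had the opposite pattern. St3gal1 and St3gal2 both act on the galactose of core 1, and St3gal2 is also known to act on gangliosides. St3gal1 read 18.3 and 21.8 on the E arrays, 1328.5 and 1354.5 in M1, 956.6 and 614.7 in M2, 213.0 and 223.3 in M3, and 620.9 and 662.0 in M4. Every M array was above both E arrays, M1 was the highest line and M3 the lowest of the M lines, and the arrays of M2 and M4 overlapped. The log2 difference was 3.66 for the mean of the M lines (pooled SD 0.20), which corresponds to 12.6 times on the scale of signal + 32, and ran from 2.27 in M3 to 4.72 in M1. Its second probe set was dim, at 2.5 on both E arrays and 2.6 to 53.2 on the M arrays, and gave a difference of 0.65 with the same order of lines. The St3gal1 range among the M lines, 2.46 on the log2 scale, was the widest of the 10 members.

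St3gal2 read 27.5 and 26.6 on the E arrays, 760.2 and 661.2 in M1, 799.3 and 615.6 in M2, 521.6 and 487.1 in M3, and 350.5 and 389.0 in M4. Again no M array overlapped E. The difference was 3.31 (pooled SD 0.14), or 9.90 times on the scale of signal + 32, with M1 and M2 highest and M4 lowest; the 2 other probe sets gave 2.67 and 2.07. Both differences shrank with that larger pseudocount, to 2.38 for St3gal1 and 2.14 for St3gal2, because the E signals were near the background.

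St3gal3, St3gal4 and St3gal6 sialylate the galactose at the ends of N-glycan and lactosamine chains, and none of them differed from E by 2-fold in the mean of the M lines. St3gal3 had signals of 245.1 and 264.1 in E, 256.4 and 244.7 in M1, 199.3 and 145.5 in M2, 98.8 and 136.6 in M3, and 110.9 and 111.0 in M4. The M1 arrays overlapped those of E, and 7 of the 8 M arrays lay below both E arrays. The St3gal3 difference of -0.62 was -0.21 after quantile normalization.

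St3gal4 was measured by 1 probe set, which read 216.7 and 169.9 in E, 296.5 and 282.8 in M1, 444.1 and 364.9 in M2, 279.7 and 260.8 in M3, and 138.4 and 163.8 in M4. In this scaling M1, M2 and M3 lay above both E arrays and M4 below them, and no neighbours in the order M2, M1, M3, E, M4 overlapped. The differences from E were 0.52, 0.96 and 0.43 in M1, M2 and M3 and -0.29 in M4. The lower place of M4 depended on scaling: its difference was 0.31 after quantile normalization and 0.16 after scaling to the hybridization controls. St3gal6 was dim on every array, with 10.6 to 40.1 on the E arrays and 6.5 to 57.6 on the M arrays for its brightest probe set, and 3 of its 5 probe sets passed the 40th percentile on no array.

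St3gal5 encodes GM3 synthase, the enzyme that makes the first ganglioside from lactosylceramide. Its signals were 923.3 and 809.8 in E, 314.6 and 313.2 in M1, 591.7 and 458.2 in M2, 356.0 and 342.1 in M3, and 382.4 and 350.5 in M4. All M arrays were below both E arrays, with M2 the highest of the M lines and M1 the lowest. The difference was -1.12 (pooled SD 0.13), and -1.48 for the second probe set, in which M1 stood at -2.49. It passed 2-fold under the deposited scaling, and was -0.95 after median centring, -0.81 after scaling to the hybridization controls and -0.71 after quantile normalization.

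**Figure D2:**
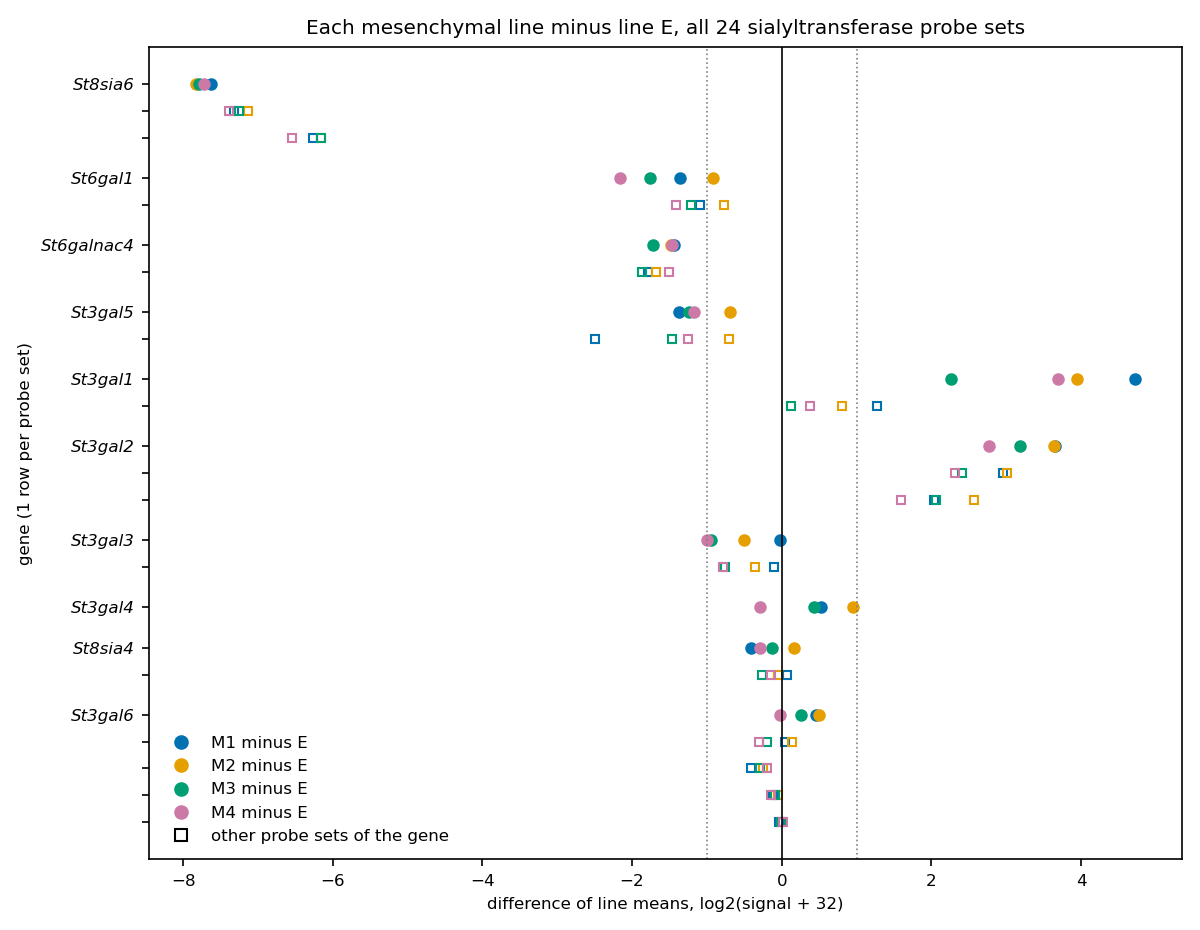
Difference between each mesenchymal line and line E in log2(signal + 32) (x axis) for all 24 probe sets (y axis, grouped by gene); filled circles are the representative probe set of a gene, open squares its other probe sets, and dotted lines mark a 2-fold difference. The probe sets of St8sia6, St6gal1, St6galnac4 and St3gal5 lie to the left of 0 and those of St3gal1 and St3gal2 to the right in all 4 lines.

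Over the 10 members, 2 were at least 2-fold higher in the mean of the M lines, 4 at least 2-fold lower and 4 within 2-fold. Over all 14840 genes tested, 7.34% were at least 2-fold higher and 14.5% at least 2-fold lower; as the members were chosen from this contrast, nothing is read from the comparison. All 8 M arrays lay above both E arrays for 2 members and below them for 4, against 10.8% and 30.9% of all genes. The median member difference was -0.39, beside -0.21 for all genes. In the single lines, St3gal1 and St3gal2 were at least 2-fold higher in all 4 (8.6%, 8.58%, 7.7% and 6.65% of all genes, from M1 to M4). The members at least 2-fold lower numbered 4 for M1, 2 for M2, 4 for M3 and 5 for M4 (12.5%, 11.8%, 19.8% and 20.1% of all genes). In M2 the members were St8sia6 and St6galnac4, and the fifth in M4 was St3gal3, which lay just past 2-fold there. All 10 members passed the filter on low values with at least 1 probe set; St8sia6 did so with its representative probe set through the 2 E arrays alone. The 4 comparisons with E share the same E arrays.

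**Figure D3:**
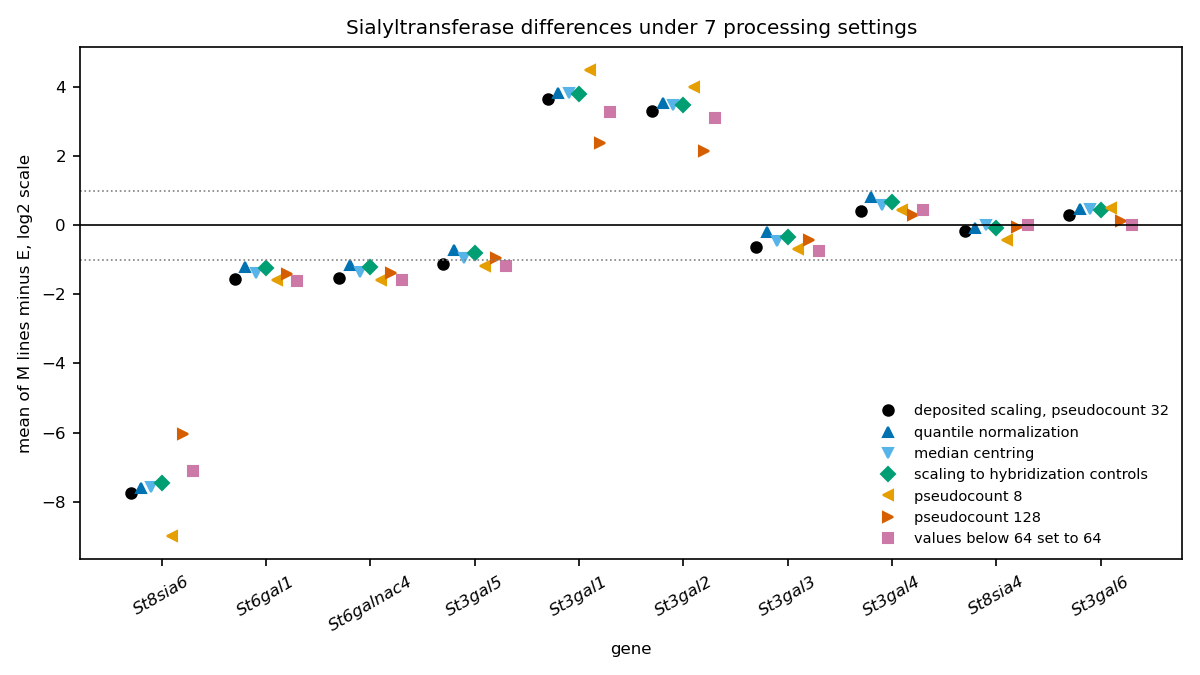
Difference between the mean of the M lines and E on the log2 scale (y axis) for each of the 10 genes (x axis) under 7 settings for scaling, pseudocount and floor; dotted lines mark 2-fold. The 3 St3gal5 values after rescaling and the value with the larger pseudocount lie above the lower dotted line, while St8sia6, St6gal1, St6galnac4, St3gal1 and St3gal2 keep their side of 2-fold under all 7.

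The 3 members with the widest range over the 5 lines were set beside the genes with the most similar profile, measured as the root mean square difference over the 5 line means after each gene was centred. For St8sia6 these were Gpx2, a glutathione peroxidase (0.05), the protease inhibitor Spint2 (0.07) and the tight junction gene Cldn3 (0.11), all high in E and at a signal of 21.9 or less on every M array. For St3gal1 they were Cavin1, a coat protein of caveolae (0.17), G0s2, a lipase inhibitor (0.23), and Csrp2 (0.25), in which M3 was also the lowest M line. For St3gal2 they were the chromatin protein Hmga2 (0.05), Man1a, a Golgi mannosidase of N-glycan trimming (0.08), and Dpy19l1 (0.12). With the probe set of highest mean log2 signal for every gene, 8 of the 9 were the same, and Cd177 (0.11) stood in place of Spint2. The genes were picked for this likeness, so a shared lowest line follows from the choice. For St8sia6 the M signals were near the background, so the likeness rests mainly on the E signal. These profiles describe 5 lines, and a gene's likeness there says nothing of shared control.

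The rest of the sialic acid pathway was examined in 9 lists of 85 genes, of which 83 had a probe set of their own and 70 passed the filter on low values. The lists were drawn up by pathway, with earlier results of these data known, and each gene was tested with limma over all 14840 genes; a gene is said to have risen or fallen when its Benjamini-Hochberg adjusted p was under 0.05 and its change at least 2-fold. Averaged over the M lines and set against E, 9 rose, 14 fell and 47 were not called. The share called was 32.9%, with 21.8% of all genes called, and the median change was -0.02, with -0.21 for all genes. After quantile normalization 12 rose and 10 fell. The labels do not say whether a line was cultured separately for its 2 arrays, so these p-values may rest on technical spread alone; in a fit to the 5 line means 14 of the 70 were called, 6 higher and 8 lower, with 10.6% of all genes called.

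Among 7 other sialyltransferases that passed the filter, 2 fell and 5 were not called. St6galnac2, an O-glycan enzyme, had signals of 355.2 and 229.6 in E and 0.6 to 4.2 on the M arrays, a change of -3.25 ± 0.16 (SE; limma adjusted p = 5.10e-23, and 3.26e-05 on 5 line means). The size depends on the probe set: with the one of highest mean log2 signal it was -1.09, still called. The representative probe set of St6galnac2 passed the filter through the E arrays alone, where it was high. St6galnac6, which acts on gangliosides, fell by 1.81 ± 0.14. St8sia2, the other polysialic acid synthase, was at 16.4 to 33.4 in line means and was not called, with a difference of -0.26. Of the remaining 3 (St6gal2, St6galnac3 and St8sia1), no probe set passed the filter.

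Of 8 genes listed under sialic acid supply, 3 fell, 1 rose and 4 were not called. The list also holds genes that do not make sialic acid, among them Renbp, the 1 that rose. Cmas, which encodes the synthase of CMP-sialic acid and so of the donor all sialyltransferases use, read 7197.6 and 6863.8 in E and 376.9 to 787.7 on the M arrays. Its change was -3.47 ± 0.12 (limma adjusted p = 2.83e-30, and 0.0027 on 5 line means), with every M array below both E arrays. Gne, the entry enzyme of sialic acid synthesis, fell by 1.89 ± 0.13, and Nanp, the phosphatase before Cmas, by 1.37 ± 0.12. The Nanp call was lost after quantile normalization (-0.997) and on 5 line means (adjusted p = 0.0871, limma). Not all genes of this list that missed the call were lower. Nans was higher by 0.90 ± 0.11 for the average of the M lines, short of 2-fold. It was called in M1 (1.34) and M4 (1.07), and stood at 0.98 in M2 and 0.20 in M3. Renbp, which turns over N-acetylmannosamine, the sugar from which sialic acid is made, rose by 4.44 ± 0.13, from signals of 8.1 and 11.2 in E to between 359.4 and 2027.9.

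Of 6 genes of sialidases and turnover, 2 rose and 4 were not called: Ctsa, which encodes the protective protein of the lysosomal sialidase, by 1.31 ± 0.10 and Casd1, a sialic acid O-acetyltransferase gene, by 1.19 ± 0.13. Neither held on 5 line means (adjusted p = 0.178 and 0.196, limma) or with the mean of all probe sets of the gene (0.57 and 0.76), and Casd1 was also lost without E replicate 2 (0.996). No sialidase gene but Neu1 passed the filter, and Neu1, the lysosomal sialidase gene, was not called when the M lines were averaged (-0.01). Its lines went different ways: the difference from E was -1.05 ± 0.17 in M1, which was called, 0.41 for M2, 0.74 for M3 and -0.16 for M4. The M1 call was lost without E replicate 1 (-0.91), without M1 replicate 2 (-0.95) and after quantile normalization (-0.76).

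The acceptor glycans are built by other enzymes. Of 14 O-glycan genes, 3 fell, 2 rose and 9 were not called. Gcnt1, whose enzyme branches core 1 into core 2 and so competes with St3gal1 for the same acceptor, read 482.5 and 273.9 in E and 1.6 to 16.6 on the M arrays, a change of -3.28 ± 0.16 (limma adjusted p = 2.49e-23, and 0.000199 on 5 line means). This Gcnt1 probe set, too, passed the filter through the E arrays alone. Among the genes that start O-glycans, Galnt3 fell by 4.93 ± 0.16 and Galnt7 rose by 4.81 ± 0.13, from 5.2 and 2.7 in E to between 453.0 and 1877.9. Galnt2, another of these genes, fell by 1.24 ± 0.12, a call that was lost after quantile normalization. It was not followed singly through the other alternatives. B3gnt3, an enzyme that extends core 1, rose by 1.39 ± 0.15 from a signal of 2.1, but its change was 0.10 with values below 64 set to 64. Of 12 genes of N-glycan branching and galactosylation, 3 fell and 9 were not called: the branching enzyme gene Mgat4a (-2.85 ± 0.14; adjusted p = 0.0601 on 5 line means, limma), and the galactosyltransferase genes B4galt4 (-1.28) and B4galt3 (-1.13). The B4galt4 and B4galt3 calls were lost after quantile normalization (-0.99 and -0.70).

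Among 6 glycosphingolipid genes, 2 rose and 2 fell. The 2 lactosylceramide synthase genes, whose product St3gal5 sialylates, moved in opposite directions: B4galt5 rose by 3.23 ± 0.13 and B4galt6 fell by 2.58 ± 0.14. Ugcg, the glucosylceramide synthase gene, rose by 1.43 ± 0.13, and B4galnt1, which extends GM3 and other gangliosides, fell by 1.75 ± 0.13. Neither of the last pair held on 5 line means (adjusted p = 0.187 and 0.105, limma). None of 5 fucosyltransferase genes was called by limma for the average of the M lines. At an unadjusted limma p under 0.05 without a fold minimum, 2 were higher and 0 lower. By that cut 2745 of all 14840 genes were higher and 6673 lower, so nothing is read from the 2. Fut8, which adds the core fucose of N-glycans, was called in M2 and in M4, each with a rise of 1.12 ± 0.15. With the mean of its probe sets both calls were lost (0.34 and 0.45), and without M2 replicate 1 that in M2 (0.89).

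**Figure D4:**
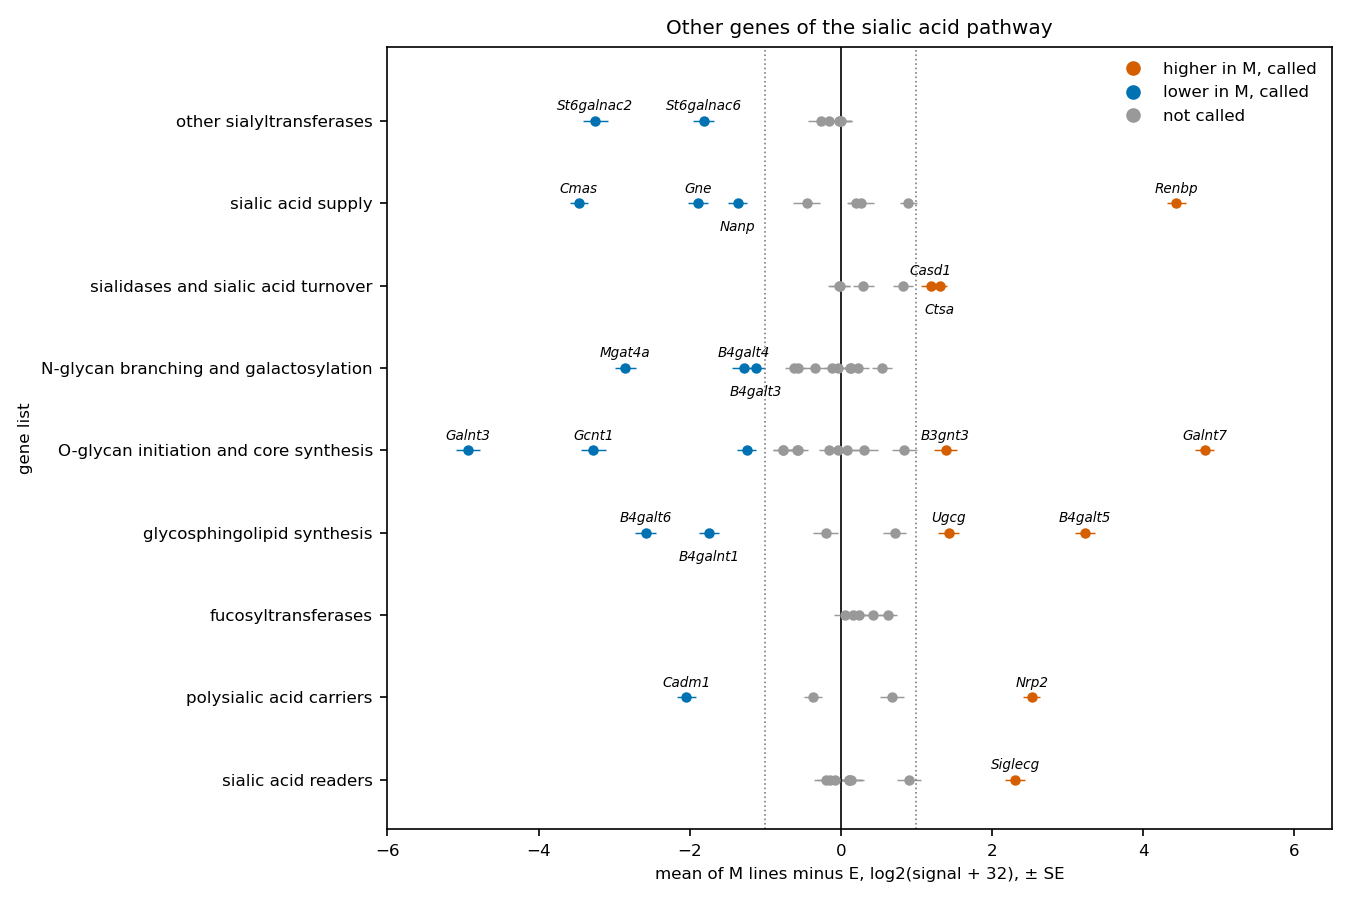
Change in log2(signal + 32) between the mean of the M lines and E (x axis, error bars ± SE from limma) for the 70 other pathway genes that passed the filter, in 9 lists (y axis); orange points rose, blue points fell and grey points were not called, dotted lines mark 2-fold, and the genes named by rule are labelled. Cmas, Gne and Nanp lie on the left of the supply list and Renbp on the right, and Gcnt1 and Galnt3 lie on the left of the O-glycan list and Galnt7 on the right.

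Of 4 carriers of polysialic acid, Nrp2, a receptor for semaphorins, rose by 2.53 ± 0.11 and the adhesion gene Cadm1 fell by 2.04 ± 0.12 (adjusted p = 0.172 on 5 line means, limma). Ncam1, the best known carrier, was named after its values were seen. It read 217.6 and 177.3 in M1 and 5.0 or less on the other 8 arrays, a change of 2.71 ± 0.20 in M1 against E (1.59 with the probe set of highest mean log2 signal), while St8sia4 in M1 was at 3.0 and 2.5. The representative Ncam1 probe set passed the filter through the M1 arrays alone. Of 8 sialic acid readers, Siglecg, a Siglec gene, rose by 2.31 ± 0.13, from 15.2 and 20.5 in E to between 168.0 and 262.1, and 7 were not called for the average of the M lines. Selp, the P-selectin gene, rose by 1.93 ± 0.20 in M2 and by 1.49 ± 0.20 in M4, from a line mean of 3.75 in E to 105.1 in M2 and 68.55 in M4. With signals below 64 set to 64 neither Selp call held (0.70 and 0.10). Siglecg is known from B cells; Cd79a, a B cell marker, had line means of 6.4 to 14.25, and the part of leukocyte RNA in the Siglecg value was not tested further.

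In the single lines, the pathway genes that rose and fell numbered 10 and 14 for M1, 13 and 13 for M2, 9 and 12 for M3 and 11 and 16 for M4, with 21.1%, 20.4%, 27.5% and 26.8% of all genes called in those lines. When the M lines were tested among themselves (moderated F, with a range of at least 2-fold), 21 of the 70 were called, with 22.4% of all genes; without line M4, 10 were called, with 14.5% of all genes. In all, 10 genes were called in at least 1 line and not in the mean: Nans, Neu1, Glb1, Man2a2, Galnt1, Galnt11, Gcnt3, Fut8, Ncam1 and Selp. They were named after their values were seen, and 7 of the 10 were also called among the M lines. A gene called in a line and not in the mean is prone to differ among the M lines. The 7 calls therefore follow in part from the choice and are no separate support. No pathway gene was called in opposite directions in 2 of the M lines.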

How the data were processed

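RNA of 5 lines (E, M1, M2, M3 and M4, 2 arrays each) had been labelled with biotin and hybridized to 1-colour arrays, per the labels. The authors deposited linear signals per probe set (unit: intensity); the submitters' processing notes name GCOS 1.3, with the algorithm, the target of scaling and any background step not given in the sources used here. Symbols came from the platform annotation, and 64 control probe sets were left out.

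Signals were taken to log2(signal + 32) under the deposited scaling. Probe sets that exceeded the 40th percentile of the array on 2 or more arrays were kept, and the one with the highest mean stood for its gene. Which mean was not fixed in the design: the mean of log2 values was run first, and the mean of linear signals, reported here, was chosen after the results of both had been seen (3211 against 3237 genes called). Taking the filter and probe set of left-out fits from all 10 arrays was also chosen after the other version had been seen. limma 3.58.1 in R 4.3.3 (lmFit, eBayes with a trend) was fitted to 14840 genes with 1 mean per line, 5 residual degrees of freedom and Benjamini-Hochberg adjustment, and was tested on simulated data. Members got no test. The members and lists were chosen with earlier results of these data known. Genes named are all members, up to 4 called genes with the largest change per pathway list, and the 3 nearest profiles of 3 members. Galnt2 and the genes called in single lines were named outside this rule. Replicate numbers did not pair the arrays: deviations of same-numbered arrays correlated at -0.07 to 0.06 over 10 line pairs. The number of arrays limits the precision, and no detection calls were used. Alternatives covered scaling, pseudocount, filter, probe sets, replicate block, line means and left-out arrays or lines.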

Additional observations from a re-analysis of the deposited data

Results flagged for a closer look

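The following genes differed between the 4 M lines by a moderated F test in limma across all genes, as a test of the difference itself, with a range of at least 2-fold; each value is the log2 range of the M line means. Ncam1 had the widest range, 2.73, with M1 highest. Renbp ranged over 2.38, with M1 lowest and M3 highest. Mgat4a ranged over 2.12 and Cadm1 over 2.08, both lowest in M4 and highest in M2. Galnt7 ranged over 1.71 and B4galt6 over 1.55, again with M4 lowest and M2 highest. Nrp2 ranged over 1.67, lowest in M4, and B4galt5 over 1.62, highest in M4. Ugcg ranged over 1.52 with M1 highest, B4galnt1 over 1.26 with M1 lowest, Ctsa over 1.25 with M1 lowest, and Casd1 over 1.21 with M2 highest. Of the genes called in single lines and not in the mean, Selp ranged over 1.93 with M2 highest, Neu1 over 1.79 with M1 lowest and M3 highest, Fut8 over 1.29 with M3 lowest, Galnt1 over 1.21 with M4 lowest, Man2a2 over 1.14 with M3 highest and Nans over 1.14 with M1 highest. These genes, and Ncam1, were picked for calls on the same arrays, so their F calls follow in part from the choice. For every gene here the test may rest on technical spread between the arrays of a line.

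For St3gal4 the M lines lay on both sides of E under the deposited scaling, with a range of 1.25 on the log2 scale between M4 and M2. M4 was 0.31 above E after quantile normalization and 0.16 above it after scaling to the hybridization controls, so the pattern depends on scaling. This difference was not tested.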

How the results depend on the processing

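No called value changed direction under the alternatives run. Among members within 2-fold, St8sia4 went from -0.17 to 0.01 after median centring, and St3gal6 from 0.30 to -0.08 without E replicate 2. Both were 0 with values below 64 set to 64. In single lines, St3gal4 in M4 went from -0.29 to 0.31 after quantile normalization, St3gal3 in M1 from -0.02 to 0.25, and St3gal6 in M4 from -0.02 to 0.21, and St8sia4 in M3 went from -0.13 to 0.09 after median centring. Of the 10 members, 6 differed by at least 2-fold, 2 higher and 4 lower, in every fit that left out 1 array; 3 were lower in place of 4 after quantile normalization, median centring, scaling to the hybridization controls or with the larger pseudocount, each time through St3gal5. Without a fold minimum, 40 pathway genes were called for the mean of the M lines in place of 23, 42 in M1 in place of 24, 44 in M2 in place of 26, 37 in M3 in place of 21, and 45 across the M lines in place of 21. These are 57.1%, 60%, 62.9%, 52.9% and 64.3% of the genes tested, against 60.7%, 50.3%, 50.7%, 58.1% and 60.7% of all genes. In M4 the share was 55.7%, against 60.1% of all genes. For the mean, for M3 and for M4 the share thus lay below that of all genes. On 5 line means 14 were called (20%, against 10.6% of all genes). Without line M4, 10 were called across the M lines (14.3%, against 14.5% of all genes). Leaving out each array in turn gave 23 to 24 calls for the mean of the M lines, 24 to 26 in M1, 25 to 28 in M2, 21 to 23 in M3, 26 to 29 in M4 and 19 to 25 across the M lines. The Casd1 call was lost without E replicate 2 (0.996), as were those of Nans in M4 (0.9999) and Glb1 in M2 (0.98). The call of Galnt11 in M4 was lost without M4 replicate 1 (-0.90). With the replicate number as a block, 23 pathway genes were called, as without it, and the counts of the single lines did not change; replicate numbers did not pair the arrays.

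Both alternatives added after seeing the data are the versions that were run first. With the probe set of highest mean log2 signal, 23 pathway genes were called for the mean of the M lines and 20 in M3, and 3211 of all genes in place of 3237. St6galnac2 (-1.09 in place of -3.25) and Ncam1 in M1 (1.59 in place of 2.71) kept their calls. With the filter and probe sets recomputed in each fit that left out 1 array, 23 to 24 were called for the mean of the M lines, 23 to 26 in M1, 25 to 27 in M2, 21 to 22 in M3, 26 to 29 in M4 and 19 to 25 across the M lines. St8sia4 gave no value with the filter at the 60th percentile. The cause of these shifts was not tested. Signals near the background limit the fold of St8sia6, St3gal1 and St3gal2, and 2 arrays per line limit every error.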
